A study of Mus musculus with 2 samples.

Results

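Non-cycling nephron progenitors of the newborn mouse kidney were taken from 2 single-cell RNA libraries, 1 of control and 1 of kidney exposed to maternal diabetes. A cell was a member when it held at least 1 transcript, counted by unique molecular identifier (UMI), of at least 3 of the 7 genes Six2, Cited1, Crym, Spock2, Eya1, Meox1 and Uncx. It also had to hold no UMI of Lhx1, an early gene of the renal vesicle, and UMIs of at most 2 of the 8 cell cycle genes Mki67, Top2a, Cdk1, Cenpf, Ube2c, Birc5, Nusap1 and Tpx2. Candidates whose deposited hybrid score, a measure of doublets, exceeded 1 were dropped (19 control and 9 exposed cells). Members were thus chosen by the measured UMIs of these 16 genes. This left 559 members of 14565 cells, 345 of 9071 control cells and 214 of 5494 exposed cells.

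Both libraries came from whole kidney at postnatal day 2, strain C57BL/6J, from a control and a group named DM_Exp and maternal diabetes exposed; the series description calls the DM_Exp mice male. The labels speak of pooled cells and of 1 kidney, so the number of animals behind a library is unknown. Per the labels' protocols the kidneys were dissociated with warm trypsin and frozen in serum with dimethyl sulfoxide before 10x 3' libraries were made, in both groups. The sources used here do not say how maternal diabetes was brought about. Each group is a single library, so the exposure could not be tested: values of both libraries are given side by side, and every interval is a 95% interval for counting error alone, which leaves out the spread between cells and between animals. In summed libraries, fewer cells that transcribe a gene and fewer transcripts per cell cannot be told apart.

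Nephron progenitors form the cap mesenchyme around the tips of the ureteric bud. Six2, Eya1 and other factors keep them undifferentiated and dividing, while Wnt9b and then Wnt4 draw some of them into pretubular aggregates and renal vesicles, which become the nephron from the podocyte to the distal tubule. In the mouse this reserve is used up within days after birth, and the number of nephrons is then fixed for life.

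The 7 genes of the rule describe the members and support nothing else. Levels are UMIs per 1000000 UMIs of the summed cells (CPM). Six2, the homeobox factor that maintains self-renewal, stood at 176 CPM in the control and 177 CPM in the exposed members, against 18.6 and 13.3 CPM in all other cells. Cited1, a transcriptional co-activator of the uninduced cap, stood at 949.8 and 807 CPM, against 64.9 and 50.2 CPM in other cells. Uncx, a homeobox factor, stood at 277 and 225 CPM. Crym (a thyroid hormone-binding protein) at 160.2 and 159 CPM, Spock2 (a secreted proteoglycan) at 219 and 209.7 CPM, Eya1 (a co-activator that binds Six2) at 128 and 134 CPM and Meox1 (a homeobox factor) at 127 and 124 CPM make up the rest. Cells were chosen by a UMI of these genes, and a deeper library passes that choice at lower levels, so no ratio between the libraries is given for them. After each cell was thinned to 2000 UMIs, Six2 was found in 30.3% and 30.3% of members and Cited1 in 72.3% and 64.9%. Before thinning, the shares were 54.5% and 63.1% for Six2 and 85.8% and 80.4% for Cited1. Endothelial cells, which should lack both genes, served as the measure of free RNA: 0.432% and 0.212% of them held a Six2 UMI and 0.288% and 1.06% a Cited1 UMI, at median depths of 2628 and 3211 UMIs against 4151 and 5302 in members. Meox1 did not mark the members alone, since 18.3% and 27.4% of endothelial cells held it.

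Most members held 3 or 4 of the 7 genes. In the control 135 members held exactly 3 of the 7 genes, 127 held 4, 60 held 5, 22 held 6 and 1 held all 7; in the exposed library these numbers were 83, 57, 41, 29 and 4. Just outside the rule, 155 control and 100 exposed cells held exactly 2 of the 7 genes and met every other criterion. Their Cited1 level was 232 and 167 CPM, against 812 and 565 CPM in cells with exactly 3. Their Wnt4 level was 325 and 434 CPM, against 273 and 472. None of the 8 cycle genes was found in 241 control (69.9%) and 141 exposed members (65.9%). Of the members, 341 control and 212 exposed cells lay in the authors' cluster 2 of that library, of which they made up 10.2% and 10.8%; the authors' clusters carry no names and are numbered within a library.

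The members differed in depth between the libraries. The median was 4151 UMIs and 1571 genes per cell in the control and 5302 UMIs and 1859 genes in the exposed library, with ranges of 1291 to 15859 and 1343 to 12816 UMIs. Cells that met the rule but for more than 2 cycle genes (cycling progenitors, 176 and 114) had medians of 6542 and 7808.5 UMIs. Lhx1-positive progenitors (120 and 78) held at least 3 of the 7 genes and a Lhx1 UMI, with a hybrid score of at most 1. Their medians were 8717.5 and 9557 UMIs. No limit on cycle genes was set for them, and 75% and 70.5% of them held Top2a. Since deeper cells pass a limit of 3 genes and fail a limit on Lhx1 and cycle genes more easily, the rule itself leans on depth. The libraries shared 14 cell barcodes; 2 control and 1 exposed members carried one of these, and no barcode was a member in both. Mitochondrial UMIs made up a median of 6.08% and 4.99% of a member, and 8 control members and 0 exposed members were over 25%.

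The label was checked against markers of the kidney's other cells. Summed markers stood below their level in all other cells for podocytes, every tubule segment, collecting duct, stroma, smooth muscle, endothelium and blood cells in both libraries, and the 7 rule genes stood far above theirs, as the choice of cells requires. Stroma lies next to the cap; its 9 markers summed to 91.1 and 89.3 CPM in members, against 868 and 1079 CPM in other cells, and Lum was at 0. The 7 markers of differentiating nephron summed to 466 and 648 CPM, close to the 519 and 606 CPM of other cells. Of these markers, Lhx1 is at 0 by the rule, and most of the sum was Wnt4 and Pax8.

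**Figure D1:**
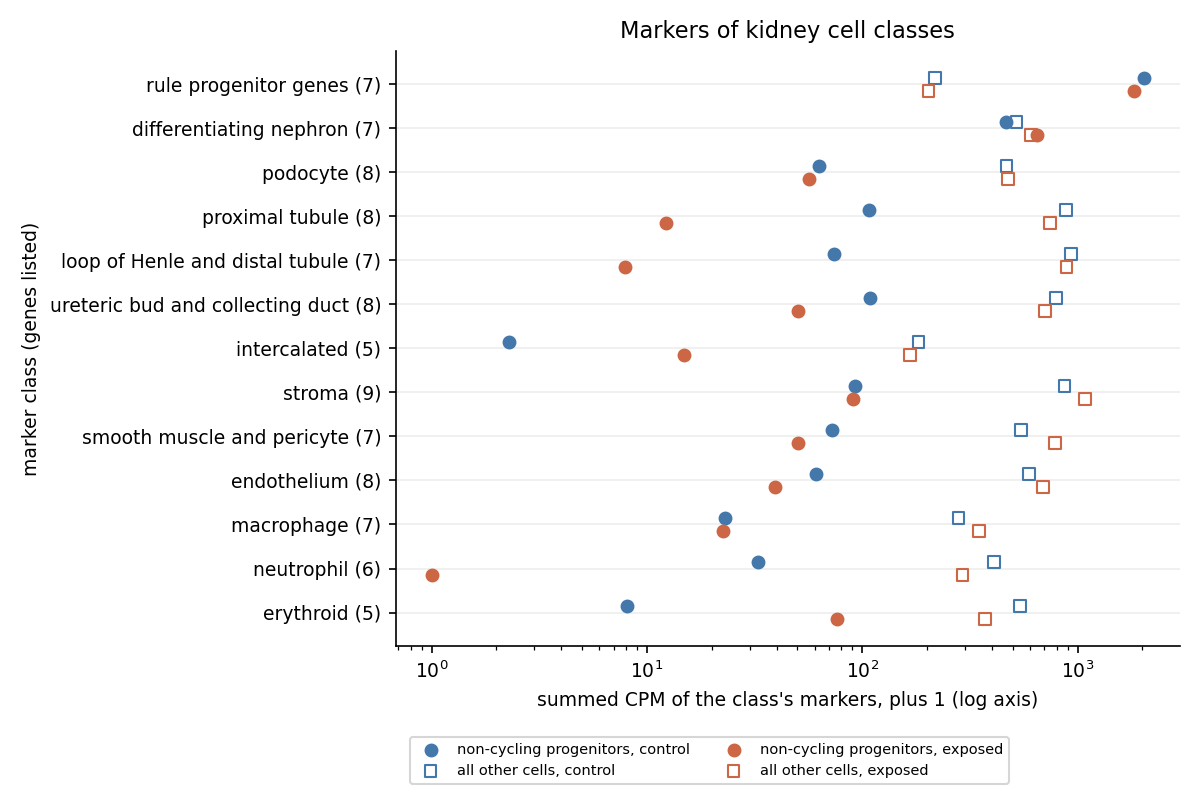
Summed level of marker genes by cell class, in CPM plus 1 on a log axis, for non-cycling progenitors (filled circles) and all other cells (open squares) of the control (blue) and exposed (orange) library, with the number of markers listed for both libraries in brackets. Proximal tubule markers stood at 106 CPM in control and 11.3 CPM in exposed members, and neutrophil markers at 31.7 and 0 CPM.

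Tubule and blood markers were not spread evenly over members. The 8 proximal tubule markers summed to 106 CPM in the control and 11.3 CPM in the exposed members, and a single control cell held 69.5% of the control UMIs. The 7 markers of loop of Henle and distal tubule stood at 73 and 6.93 CPM, with 53.1% of the control UMIs in 1 cell. A single exposed cell held 97.7% of the exposed erythroid UMIs, which summed to 75.4 CPM against 7.11 CPM in the control. Collecting duct markers stood at 108 and 49.4 CPM and neutrophil markers at 31.7 and 0 CPM. Cells that carry such transcripts are named beside the genes they touch below.

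Outside the 16 genes of the rule, 92 of 5616 genes tested (1.64%) were over 2-fold higher in members than in all other cells in both libraries, with 10 CPM added to each level, and 164 (2.92%) were over 2-fold lower in both. A gene was tested when listed for both libraries with at least 50 UMIs over the members of both. Named are the 20 with the highest ratio in the library where it was lower. Pnmt, the enzyme that turns noradrenaline into adrenaline, was at 65.9 and 49.4 CPM in members, against 2.95 and 1.52 CPM in other cells. Traf1, an adaptor of tumour necrosis factor receptors, was at 78.8 and 66.7 CPM, 12.5-fold and 12.6-fold over other cells. Snap91, an adaptor of clathrin coats best known from synapses, was 7.72-fold and 8.11-fold over them, and Siglecg, a sialic acid-binding lectin best known from B cells, 10.7-fold and 15.4-fold. These 4 were also lower in Lhx1-positive progenitors than in members of both libraries.

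Several of the 20 encode secreted, matrix or adhesion proteins. Rspo1, a secreted amplifier of Wnt signals, stood at 148 and 171 CPM, 4.4-fold and 4.38-fold over other cells. It was not particular to members, with 137 and 151 CPM in cycling and 115 and 117 CPM in Lhx1-positive progenitors. Vcan, a matrix proteoglycan, stood at 330.2 and 350.1 CPM, Col2a1, a collagen best known from cartilage, at 67.8 and 71.1 CPM, and Kazald1, a secreted protein related to IGF-binding proteins, at 73 and 85.8 CPM. The adhesion molecule Clmp was at 139.6 and 127 CPM. Among intracellular proteins were Hmga2, a chromatin protein of fetal and stem cells, at 138 and 137 CPM, Kif26b, a kinesin-family protein that mouse kidney mesenchyme needs, at 92.4 and 78 CPM, and Slc16a1, a lactate transporter, at 103 and 94.5 CPM. Hmga2 was also at 134 and 91.4 CPM in cycling and at 117 and 105 CPM in Lhx1-positive progenitors. Elavl4, an RNA-binding protein of neurons, was at 42.6 and 53.7 CPM. Cped1, Capn6, Shisa2, Gm14964 and Ttc28 complete them, between 3.75-fold and 6.52-fold over other cells, with the co-chaperones Dnajb1 and Dnaja4, taken up below. All 20 had intervals of the exposed over control ratio that held 1, other than Dnajb1 and Dnaja4.

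**Figure D2:**
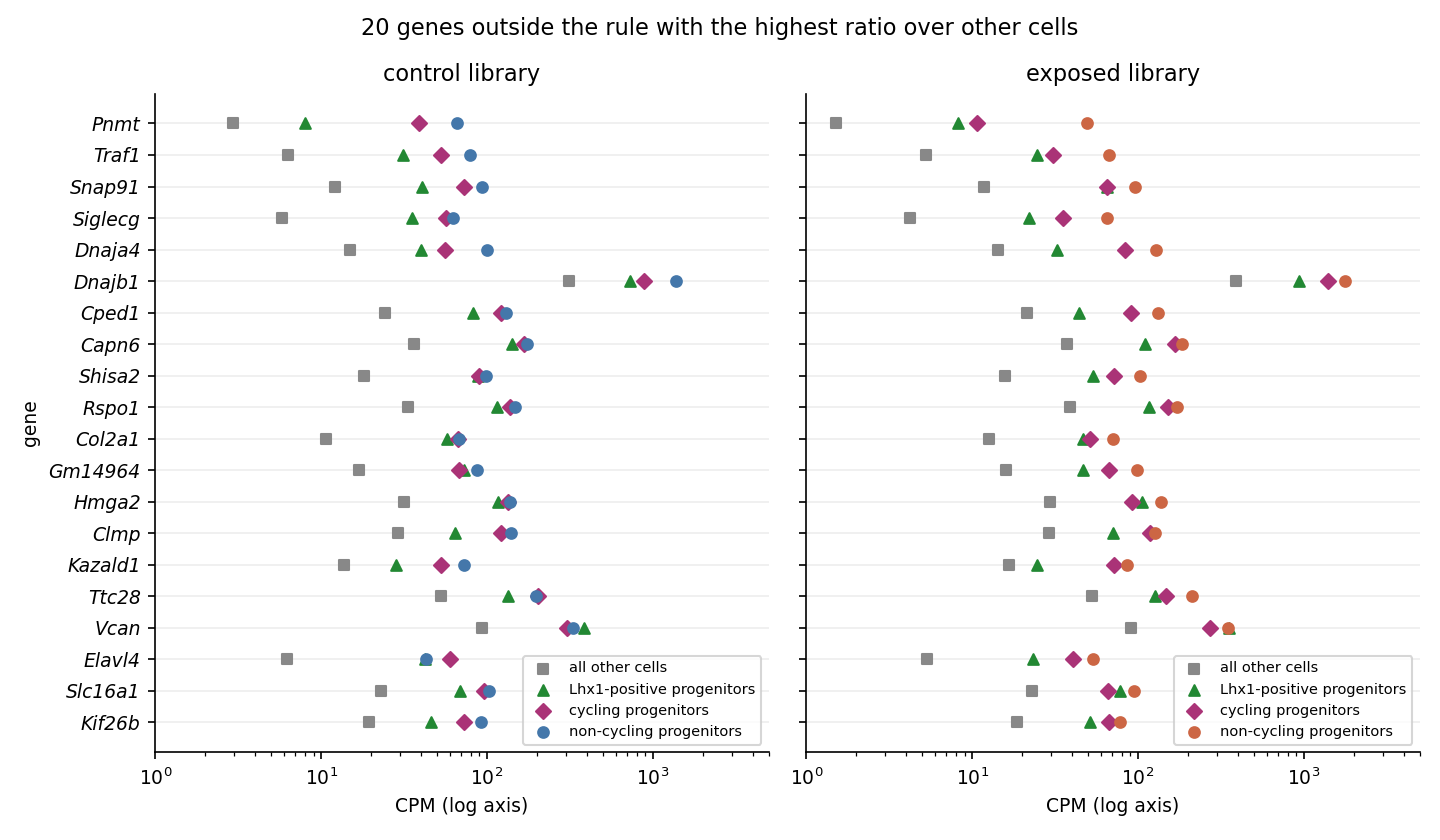
Level in CPM (log axis) of the 20 named genes in all other cells, Lhx1-positive progenitors, cycling progenitors and non-cycling progenitors, 1 panel per library. Non-cycling progenitors stood above all other cells for each gene, for Pnmt at 65.9 against 2.95 CPM in the control and 49.4 against 1.52 CPM in the exposed library.

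At the other end, the 10 genes with the lowest ratio to other cells were S100g, Igfbp7, Apoe, Atp1b1, Mgp, Fxyd2, Ifitm3, Ptn, Gpx3 and Tmsb4x. S100g, the calcium-binding protein of tubules, stood at 53.6 and 19.1 CPM in members and 1606 and 1259 CPM in other cells. Ptn, a growth factor of the stroma, stood at 121 and 145 CPM, against 888 and 946 CPM.

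Of 20 progenitor transcription factors outside the rule, 15 were measured. Wt1, the zinc-finger factor that the mouse kidney needs to form, stood at 351 and 354 CPM in members and 174 and 171 CPM in other cells, Pax2 at 126 and 147 CPM against 59.5 and 61.3, and Sall1 at 70.4 and 52.9 CPM against 35.1 and 34. Osr1, an early factor of the renal lineage, was low, at 22.6 and 19.1 CPM, but above the 4.91 and 5.14 CPM of other cells. The Hox genes Hoxc10 and Hoxd11 stood at 154 and 156 CPM and at 162 and 152 CPM. Tcf21, a factor of stroma and podocytes, went the other way, at 65.3 and 68.5 CPM against 248 and 335 in other cells. Over the list, the median log2 ratio of members to other cells was 0.83 for control and 0.93 for exposed cells, where over all genes tested it was -0.02 and -0.06.

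Of the secreted signals of progenitors, Mdk, a heparin-binding growth factor, stood at 756 and 804 CPM in members, against 786 and 829 CPM in other cells; Wnt4 is given below. Gdnf, the ligand that makes the ureteric bud branch, stood at 34.2 and 37.3 CPM in members, against 13.8 and 14.2 CPM in other cells. Fgf20 and Fgf9, which maintain progenitors, stood at 12.9 and 23.4 CPM (20 and 27 UMIs) and at 25.2 and 29.5 CPM. Fgf1 was at 48.5 and 48.5 CPM and Fgf8, which nascent nephrons need, at 72.4 and 78.9 CPM. Bmp7, a survival signal of progenitors, stood at 45.9 and 45.9 CPM, no higher than the 47.3 and 48.6 CPM of other cells. Among receptors and adhesion molecules, Fgfr1 stood at 234 and 229.7 CPM against 88.1 and 86.6, Itga8, the integrin by which cap cells bind nephronectin of the bud, at 74.9 and 87.5 CPM against 46.7 and 44.9, and Robo2 at 134 and 119.6 CPM against 54.4 and 46.5. Etv4, a target of FGF signals, was at 133 and 131 CPM, against 36.8 and 35.2.

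The co-chaperone Dnajb1 was at 1384 and 1768 CPM in members, 4.41-fold and 4.55-fold its level in other cells, and a thinned cell held it in 66.2% and 73% of members, against 16% and 14.5% of endothelial cells. The related cells shared it, with 61.4% and 69.9% of thinned cycling progenitors and 50% and 61.5% of thinned Lhx1-positive progenitors. The heat shock list as a whole stood above other cells, with a median log2 ratio over its 14 genes of 0.90 and 1.01. Its genes are switched on by heat shock factor 1, which binds repeats of the unit GAA in alternate orientation. The 200 bases before the start of 3 genes are shown to compare them, 5′ to 3′ on the gene's strand, from RefSeq promoters of build GRCm38.p6; capitals mark GAANNTTC or TTCNNGAA, searched on both strands, where each reads the same and both may overlap. Hspa1a, the inducible HSP70, lies on the minus strand (chr17:34972157-34972356), Hspb1, a small heat shock protein, on the plus strand (chr5:135887719-135887918) and Dnajb1 on the plus strand (chr8:83607975-83608174).
Hspa1a: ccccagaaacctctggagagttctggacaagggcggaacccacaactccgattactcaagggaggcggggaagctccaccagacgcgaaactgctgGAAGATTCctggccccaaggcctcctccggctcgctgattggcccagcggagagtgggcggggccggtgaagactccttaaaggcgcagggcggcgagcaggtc
Hspb1: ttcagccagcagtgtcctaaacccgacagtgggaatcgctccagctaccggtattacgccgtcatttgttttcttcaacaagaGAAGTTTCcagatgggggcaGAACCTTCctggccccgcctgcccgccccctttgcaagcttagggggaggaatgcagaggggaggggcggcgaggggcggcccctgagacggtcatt
Dnajb1: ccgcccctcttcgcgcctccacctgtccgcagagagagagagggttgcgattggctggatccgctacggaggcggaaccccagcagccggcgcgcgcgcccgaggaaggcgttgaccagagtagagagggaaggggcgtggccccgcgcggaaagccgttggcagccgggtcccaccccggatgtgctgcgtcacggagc
The Hspa1a window holds 1 match, Hspb1 2 matches, and Dnajb1 none. Such a pair of units was found in 8 of the 10 heat shock genes with a promoter in the table (80%), against 3198 of all 27025 genes there (11.8%) and 411 of the 4339 genes tested that matched it (9.47%). The 8 include Hspa1a with Hspa1b and Hspe1 with Hspd1, whose windows are near-identical or overlap, so the 80% counts some matches more than once. The matching windows of Hsph1, Dnaja1, Dnaja4, Hspe1 and Hspd1 also overlap exons, by 40 to 200 of their 200 bases. A run of 3 units, GAANNTTCNNGAA or TTCNNGAANNTTC, was found in 2 of the 10 (20%), against 116 of all 27025 genes (0.429%). These 2 are Hspe1 and Hspd1, which are read in opposite directions and have overlapping windows (chr1:55087948-55088147 and chr1:55087933-55088132), so they hold the same sites and are not separate cases. The windows of Hspa1a and its near-identical copy Hspa1b differ at 1 of 200 bases, and reads of these genes can be split wrongly by counting, so their separate levels are uncertain.

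Members made up 3.8% of the control (345 of 9071, 3.42 to 4.22, Clopper-Pearson) and 3.9% of the exposed library (214 of 5494, 3.4 to 4.44). The difference was 0.0918 percentage points, with a Newcombe interval of -0.542 to 0.753, so no difference was detectable at this number of cells. When every cell was first thinned to 2000 UMIs, which only cells of at least that depth allow, the shares were 2.83% (215 of 7587) and 2.28% (113 of 4965), a difference of -0.558 points (-1.11 to 0.0149). The difference was also below 0, at -0.090 points, among members with no cycle gene, and at -0.020 points without cells over 25% mitochondrial UMIs. All 4 of these intervals held 0.

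Between the libraries, 333 of 5616 genes tested (5.93%) were over 1.3-fold higher in exposed members and 341 (6.07%) over 1.3-fold lower, on the log2 scale with 10 CPM added, which understates the ratio of low genes. At any size, 50.9% of the genes tested were higher and 49.1% lower. In all other cells, whose summed counts are far larger, 15 (0.267%) and 17 (0.303%) passed the same size. The median log2 ratio over all genes tested was 0.01 in members and 0.06 in other cells. Among the 1742 genes with at least 200 UMIs, 40 were higher and 52 lower. When mitochondrially encoded genes were left out of the total, the split was 267 higher and 443 lower. Without the 5 members with most UMIs of the gene, taken over both libraries together, it was 472 higher and 192 lower. These 5 cells need not be balanced between the libraries. Many of these genes have too few UMIs for their ratio to be read one by one.

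**Figure D3:**
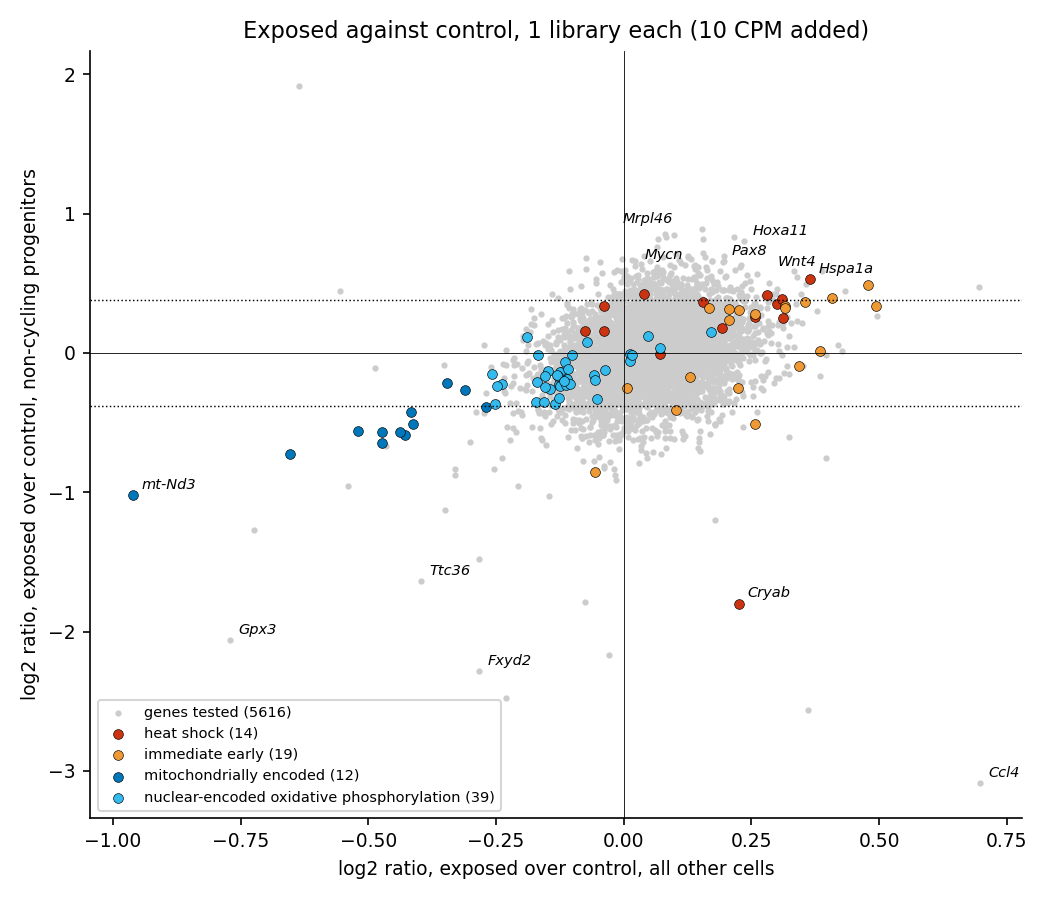
Log2 ratio of exposed over control level (10 CPM added) in non-cycling progenitors (vertical axis) against all other cells (horizontal axis) for 5616 genes, with 4 gene lists coloured and dotted lines at 1.3-fold. Mitochondrially encoded genes lie below 0 on both axes, most heat shock genes above 0 on both, and Ccl4 at -3.09 in members and 0.70 in other cells.

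Named from both ends are the 12 highest and 12 lowest ratios among genes with at least 100 UMIs. Of the 12 higher in exposed members, 3 are transcription factors of the kidney. Hoxa11, a Hox gene that mouse kidneys need together with its paralogues, was at 26.5 CPM in control and 53.7 CPM in exposed members, 2.03 (1.35 to 3.09) times the control level. Pax8, a paired-box factor of the renal lineage, was at 86.6 and 142 CPM, 1.64 (1.3 to 2.08) times the control, where in other cells its log2 ratio was 0.19. Mycn, a factor that drives growth of progenitors, was at 53 and 87.5 CPM, 1.65 (1.22 to 2.24) times the control. A UMI of Pax8 was found in 25.5% of control and 43% of exposed members, and after thinning in 14.3% and 21.8%, against 2.02% and 0.519% of thinned endothelial cells. For Hoxa11 the thinned shares were 2.62% and 10.9%, and for Mycn 7.58% and 13.7%. Hoxa11 has a neighbour on the opposite strand, and the sources used here do not say whether counting used strand. With cells thinned before the rule was applied, Mycn had a log2 ratio of 0.05, against 0.63 with cells at full depth. On GRCm38 these genes lie at chr6:52242106-52245810 (Hoxa11), chr2:24420560-24475599 (Pax8) and chr12:12936093-12941914 (Mycn), all on the minus strand.

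Yap1, the co-activator of the Hippo pathway, stood at 27.1 and 50.3 CPM, 1.85 (1.22 to 2.82) times the control, while its log2 ratio in other cells was 0.04. Wtip, a LIM protein that binds Wt1, stood at 45.2 and 74.5 CPM. Mrpl46, a protein of the mitochondrial ribosome, had the highest ratio, from 27.1 to 57.2 CPM. The others were Rbm6 (an RNA-binding protein), Mgp (an inhibitor of calcification), Samd1, Rab9 (a small GTPase of endosomes), Wdr6 and Mdp1, with log2 ratios of 0.60 to 0.69. In exposed members 1 cell held 21% of the UMIs of Mgp; for the other 11 genes no cell held over 10% in either library. The log2 ratio of Mgp was 0.29 without the 5 top cells and 0.034 with at least 4 progenitor genes. With cells thinned before the rule, Wtip (0.089) and Samd1 (0.20) lay inside 1.3-fold, and with members thinned Wdr6 (0.27) did.

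Among the 12 lowest ratios, several rested on few cells. Ccl4, a chemokine of macrophages and other blood cells, had 116 UMIs in control members, all in a single cell, and 0 in exposed members, where 3 UMIs would be 2.6 CPM. Fxyd2, a subunit of the sodium pump in tubules, was at 199 and 32.9 CPM, with 37% and 50% of its UMIs in 1 cell of each library. Its log2 ratio of -2.28 was -0.88 without the 5 top cells and -0.080 when Lhx1 was not used in the rule. Gpx3, Ttc36 and Ifitm1 had 76.2%, 60.4% and 56.7% of their control UMIs in 1 cell. Without the 5 cells with most UMIs of the gene over both libraries, the log2 ratio of Ttc36 moved from -1.64 to 0.01. It was 0.65 when Lhx1 was not used in the rule. Leaving out their own 5 top cells moved Gpx3 from -2.06 to -0.19 and Ifitm1 from -1.03 to 0.16. The proximal tubule markers described above were also lower in exposed members, and their part in these ratios was not tested.

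Cryab, a small heat shock protein, was at 163 CPM in 47 control cells and 39.9 CPM in 13 exposed cells. Its log2 ratio of -1.80 was -1.27 without the 5 top cells over both libraries. With cells thinned before the rule it was -0.30, inside 1.3-fold. In other cells the log2 ratio of Cryab was 0.23. S100g, at 53.6 and 19.1 CPM, and Igfbp7, a secreted protein of endothelium and stroma, at 66.5 and 23.4 CPM (higher in exposed cells when 2 progenitor genes sufficed), are genes of other cell types, and the tubule and collecting duct markers given above and the 8 endothelial markers, at 60.1 and 38.1 CPM, stood higher in control members too; their part in these ratios was not tested. Egr3, an immediate early factor, was at 71.1 and 35.5 CPM, 0.5 (0.34 to 0.722) times the control, spread over 71 and 33 cells. Ier3 and Spag11b were also lower, though Ier3 was higher when members or all cells were thinned, with 26.2% and 26.7% of the Spag11b UMIs in 1 cell. The log2 ratio of Spag11b was -0.84, and -0.090 without the 5 top cells. The lowest ratio of the mitochondrial genome was that of mt-Nd3, at 461 and 223 CPM.

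Mitochondrially encoded genes were lower in exposed members throughout. All 12 measured were lower, 10 of them by over 1.3-fold (6.07% of all genes tested), with a median log2 ratio of -0.56, against -0.43 in other cells and 0.01 over all genes tested. Subunit 6 of ATP synthase, mt-Atp6, stood at 26102 and 17720.4 CPM, cytochrome b, mt-Cytb, at 10541 and 6726 CPM and the oxidase subunit mt-Co1 at 6953 and 4616 CPM. Some of these genes overlap on the mitochondrial genome (mt-Atp8 with mt-Atp6, mt-Nd4l with mt-Nd4), so their separate levels are uncertain. Without the 8 control members over 25% mitochondrial UMIs, the median was -0.36, inside 1.3-fold (a log2 of 0.38), and without the 5 top cells -0.39. Nuclear-encoded subunits of oxidative phosphorylation leaned the same way by less: 34 of 39 were lower and 5 higher, none past 1.3-fold, with a median of -0.17 in members and -0.12 in other cells. Uqcrb of complex III stood at 476 and 366 CPM and Ndufb7 of complex I at 266 and 205 CPM, while Cox4i1 of complex IV was at 1329.7 and 1317 CPM.

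Heat shock genes went the other way. Of the 14 measured, 12 were higher in exposed members, 4 of them by over 1.3-fold (5.93% of all genes tested), and 2 were lower, 1 of them by over 1.3-fold (6.07% of all genes tested). Their median log2 ratio was 0.30, against 0.21 in other cells, and it lay between 0.22 and 0.36 under 14 alternative settings. Hspa1a was at 3283 and 4739 CPM, 1.44 (1.39 to 1.5) times the control. Hsp90aa1, the inducible HSP90, was at 2349 and 3072 CPM, Hspb1 at 741 and 999 CPM, and the mitochondrial chaperone Hspd1 at 633 and 819 CPM. Hspb1 differed little in other cells, with a log2 ratio of 0.04 against 0.43 in members. Hspe1, the partner of Hspd1, was at 1687 and 1675 CPM, and Cryab, given above, was the gene lower by over 1.3-fold. A thinned cell held Hspa1a in 80.2% of control and 91.5% of exposed members, and in 62.5% and 55.3% of endothelial cells. For cycling progenitors these shares were 77.2% and 88.5%, and for Lhx1-positive progenitors 70% and 82.1%.

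Cell by cell, heat shock genes took a median of 2.04% of a control member's UMIs and 2.62% of an exposed member's, with 10th to 90th percentiles of 0.84 to 4.0% and 1.21 to 4.48%. The ranges of the libraries overlapped widely. Cycling progenitors had 1.79% and 2.55%, Lhx1-positive progenitors 1.51% and 2.05%, and all other cells 0.886% and 1.04%. Within a library, a member's heat shock share ranked with its immediate early share, with a Spearman rho of 0.589 over 345 control and 0.588 over 214 exposed cells; both shares come from the same cell's UMIs, and cells of 1 library are not independent samples. With the cell's total UMIs, the heat shock share had a rho of -0.03 and 0.02.

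**Figure D4:**
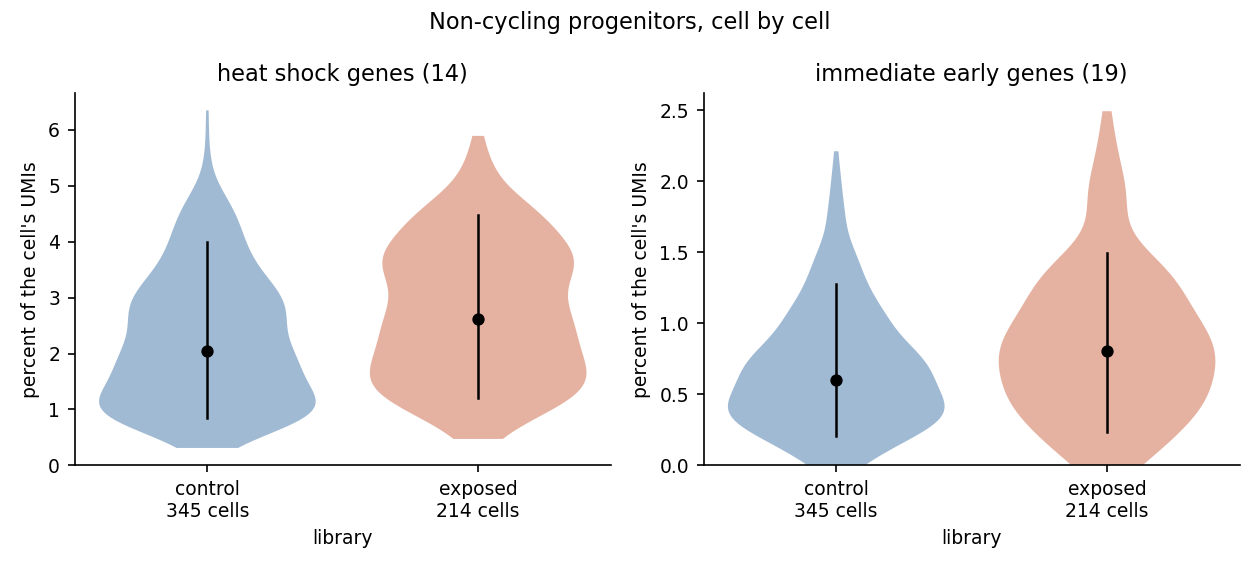
Share of each non-cycling progenitor's UMIs taken by 14 heat shock genes (left) and 19 immediate early genes (right) in the control (345 cells) and exposed library (214 cells), in percent. The outline shows the distribution over cells, the point the median (2.04 and 2.62% for heat shock, 0.60 and 0.81% for immediate early genes) and the line the 10th to 90th percentile.

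Immediate early genes, which respond within minutes to a stimulus, were split. Of 19 measured, 12 were higher and 7 lower in exposed members, with a median log2 ratio of 0.28 and of 0.26 in other cells. Jun was at 1124 and 1578 CPM, 1.4 (1.31 to 1.5) times the control, Fos at 1153 and 1517 CPM and Ier2 at 726 and 938 CPM, and all 3 had log2 ratios of at least 0.36 in other cells. Klf6 was lower, at 56.2 and 36.4 CPM, and Nr4a1 at 63.3 and 45.1 CPM, whereas in other cells their log2 ratios were 0.26 and 0.10.

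Genes of early nephron differentiation had no common direction, with 9 of 14 higher and 5 lower and a median log2 ratio of 0.04, against 0.12 in other cells. Wnt4, the signal by which progenitors turn into epithelium, was at 248 CPM in control and 356 CPM in exposed members, 1.44 (1.25 to 1.65) times the control, with a log2 ratio of 0.50 in members and 0.29 in other cells. It passed 1.3-fold under 12 of 14 alternative settings, with log2 ratios of 0.30 to 0.70. Among these settings, the limit of 20 UMIs could not change it. The 0.30, inside 1.3-fold, came with at least 4 progenitor genes. In members with exactly 3 of the 7 rule genes Wnt4 stood at 273 and 472 CPM. With 4, 5 and 6 it stood at 233 and 308, 218 and 237, and 260 and 306 CPM. Wnt4 and Pax8, both listed as markers of differentiating nephron, were among the 3 of 14 genes of this list past 1.3-fold higher (5.93% of all genes tested). The third, Jag1, a Notch ligand, was at 33.6 and 47.7 CPM, and its interval of 0.953 to 2.11 held 1; it was lower, not higher, with at least 4 progenitor genes required or cells thinned before the rule. Of Notch targets, Hes1 was at 589 and 492 CPM, 0.835 (0.751 to 0.929) times the control, while its log2 ratio in other cells was 0.27, Heyl at 31 and 16.5 CPM, and Hey1 at 115 and 116 CPM.

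Signalling targets differed little as groups. Of 7 BMP and TGF beta targets, 5 were higher and 2 lower, with a median log2 ratio of 0.14 and of 0.11 in other cells; Id1, an inhibitor of differentiation induced by BMP, was at 311 and 421 CPM, 1.35 (1.19 to 1.54) times the control. Of 7 FGF and ERK targets, 2 were higher and 5 lower, with a median of -0.05. Only 2 of 11 Wnt targets were measured: Myc stood at 35.5 and 58.9 CPM, 1.66 (1.15 to 2.41) times the control, and Ccnd1 at 85.3 and 74.5 CPM. The 4 YAP targets measured had a median of 0.12, and 0.19 in other cells. Of these, Cyr61 was at 194 and 247 CPM and Ctgf at 15.5 and 22.5 CPM, both of which were also higher in other cells, and Amotl2 at 45.9 and 41.6 CPM. Among 20 receptors and adhesion molecules, 10 were higher and 10 lower, with Epha4, an ephrin receptor, at 30.4 and 16.5 CPM the 1 past 1.3-fold lower (6.07% of all genes tested); it lay inside 1.3-fold with at least 2 progenitor genes or with members thinned.

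Of 15 secreted signals, 12 were higher and 3 lower, with a median log2 ratio of 0.09, and 0.08 in other cells. Progenitor transcription factors outside the rule had 9 higher and 6 lower, with a median of 0.02, and 2 of 15 past 1.3-fold higher, Hoxa11 and Mycn (5.93% of all genes tested). Beside them Wt1, Hoxc10 and Hmga2 had intervals of the ratio between 0.805 and 1.24. Sall1, at 70.4 and 52.9 CPM, had an interval of 0.539 to 1.04.

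**Figure D5:**
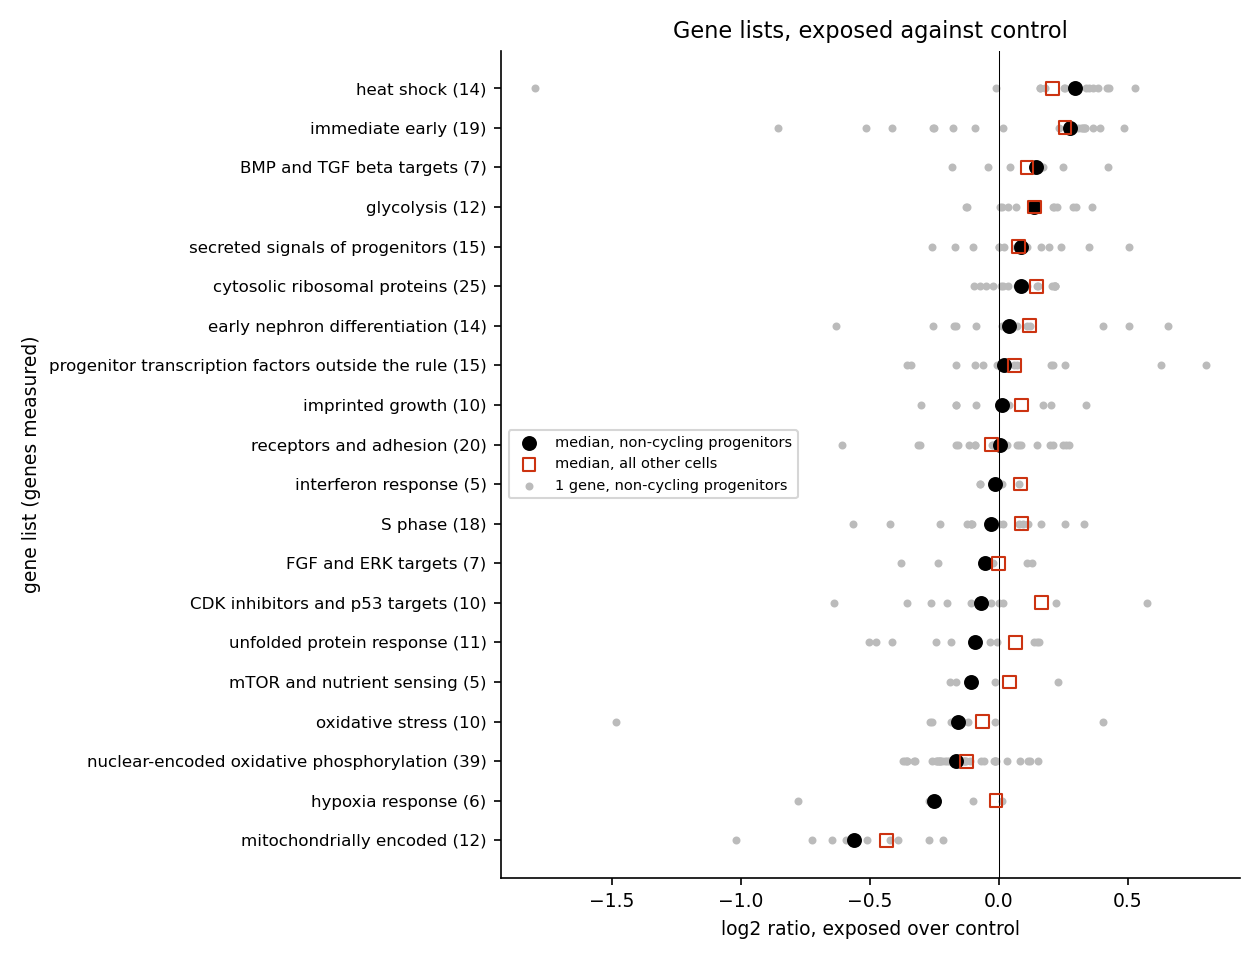
Log2 ratio of exposed over control level (10 CPM added) for the genes of each list with at least 5 measured in non-cycling progenitors (grey points), their median (black) and the median of the same genes in all other cells (open red squares). Heat shock genes have the highest median, 0.30, and mitochondrially encoded genes the lowest, -0.56.

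Metabolic and stress lists lay closer to 0. Cytosolic ribosomal proteins, which stood above other cells by a median log2 of 0.71 and 0.64, had 21 of 25 higher in exposed members, with a median of 0.09, and 0.15 in other cells. Of 12 glycolysis genes, 10 were higher and 2 lower, with a median of 0.14 in members and 0.14 in other cells; the pyruvate kinase Pkm was at 391 and 484 CPM. Hypoxia genes had 1 of 6 higher and a median of -0.25, and -0.01 in other cells; Ndrg1 was at 26.5 and 11.3 CPM, and turned to higher when Lhx1 was not used in the rule. Of 10 oxidative stress genes, 9 were lower, with a median of -0.16, among them the peroxidase Prdx1 at 1054 and 879.7 CPM. Mt1, a metallothionein that tubules also make, was at 44.6 and 9.53 CPM, and turned to higher when Lhx1 was not used or cells were thinned first. Of 11 genes of the unfolded protein response, 8 were lower and 3 higher, with a median of -0.09 in members and 0.06 in other cells. The 3 past 1.3-fold, all lower (6.07% of all genes tested), were the stress factor Ddit3, at 109.8 and 74.5 CPM (but higher with cells thinned before the rule), Herpud1, at 132 and 91.9 CPM, and Xbp1, at 57.5 and 40.7 CPM, and the chaperone Hspa5 (BiP) was at 954 and 805 CPM. Medians were -0.11 over 5 mTOR and nutrient-sensing genes, -0.02 over 5 interferon response genes and 0.01 over 10 imprinted genes, of which Mest was at 1131 and 1007 CPM.

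For the cell cycle, which the rule limits by 8 genes of its later phases, 18 genes of the S phase outside the rule were measured, of which 8 were higher and 10 lower in exposed members, with a median log2 ratio of -0.03. Unthinned, 67.2% of control and 77.6% of exposed members held at least 3 S phase genes. At 2000 UMIs the shares were 37.6% and 35.1%, against 62.6% and 70.8% of cycling progenitors and 33.5% and 31.2% of endothelial cells. The members thus lay near the endothelial cells, some of which also cycle. Of 10 CDK inhibitors and p53 targets, 4 were higher and 6 lower, with a median of -0.07; Cdkn1b (p27) was at 13.6 and 25.1 CPM (21 and 29 UMIs) and Cdkn1a (p21) at 42 and 23.4 CPM; Cdkn1a was lower except when Lhx1 was not used in the rule.

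Members differed among themselves in Wnt4. At 2000 UMIs per cell, 97 of 343 control members (28.3%, 23.6 to 33.4) and 72 of 211 exposed members (34.1%, 27.8 to 40.9) held a Wnt4 UMI; a cell with none can still transcribe the gene. In thinned endothelial cells the shares were 1.8% and 0.519%. Of the genes that chose the members, given as a description, Cited1 was at 732 against 1049 CPM without it in the control and 806 against 899 CPM in the exposed library. Uncx was at 356 against 256 and 299 against 183 CPM. Six2 was at 180.4 against 191 and 153 against 183 CPM.

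The genes with the highest ratio of members with to members without Wnt4 in both libraries were Fam132a, Lhfp, Nsfl1c, H19, H1fx, Id2, Cdv3 and Aldh1a2. Fam132a, a secreted protein of the C1q and TNF-related family, was at 423 against 173 CPM in the control and 611 against 313 CPM in the exposed library. H19, an imprinted non-coding RNA, was at 329.9 against 161 and 271 against 155 CPM, and Id2 at 345 against 215 and 382 against 237 CPM. Aldh1a2, which makes retinoic acid, was at 191 against 109.8 and 229 against 151 CPM. The interval of the Aldh1a2 ratio held 1 in the exposed library (0.932 to 2.45), and that of Cdv3 held 1 in both. The lowest ratios were those of Rwdd1, Ptn, BC005537, Fam213a, Ddit3, Zfp36l2, Dctn3 and Anxa5. Of these, only Ptn and Dctn3 had intervals that left out 1 in both libraries. Genes at both ends were ranked by the values given, so the values describe them and are no test. Pax8 was at 72.2 against 93.5 and 153 against 140.3 CPM, with intervals that held 1.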

How the data were processed

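Both libraries were made from whole kidney with the 10x Chromium 3' v2 kit, per the labels' protocols, with Cell Ranger 2.2.0 and mm10 named in the submitters' processing notes. The authors deposited raw UMI counts for each cell. Percent mitochondrial UMIs, each cell's hybrid score and unnamed cluster numbers were made by the authors and taken as deposited. The sources used here do not say how the authors chose cells and genes. No doublet caller was run here; the hybrid score was the only filter.

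Members were found by the rule stated above. The members, gene lists and named genes were chosen with earlier results of these data known. UMIs of the 8930 genes listed for both libraries were summed per library and cell group and scaled to CPM. Totals were 1547762 and 1153812 UMIs in members, of 39200142 and 28213601 in all cells; 660 and 615 genes listed for 1 library were left out. Log2 ratios carry 10 CPM added. Genes with at least 50 UMIs over the members of both libraries were tested for size, and those with at least 100 could be named: the 12 highest and 12 lowest ratios, the 20 highest over other cells, 8 at each end of the Wnt4 split, rule genes and genes of the lists. Lists are described by counts and medians, with no p-value. Shares have 95% Clopper-Pearson, differences Newcombe and ratios exact conditional binomial intervals, for counting error alone, and understate the error where a gene's UMIs lie in few cells. Endothelial cells were cells with UMIs of at least 3 of 8 endothelial markers and a hybrid score of at most 1. Members, cycling progenitors and Lhx1-positive progenitors were left out of them. Thinning drew 2000 UMIs per cell without replacement. Promoters were matched by symbol in the RefSeq table of GRCm38.p6, for 10 of 14 heat shock genes. Scripts were checked on simulated counts and used Python 3.11.15, numpy 2.4.6, scipy 1.17.1, pandas 2.3.3 and matplotlib 3.10.9.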

Additional observations from a re-analysis of the deposited data

Results flagged for a closer look

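Ccl4 was lower in exposed than in control members, with a log2 ratio of -3.09, and higher in all other exposed cells, with 0.70. The opposite direction in the 2 groups of cells drew attention to it, and the difference was not tested. All 116 of its UMIs in control members lay in 1 cell, and exposed members held 0.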

How the results depend on the processing

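Ratios of named genes, list medians and counts were recomputed under up to 14 alternatives, counts also under 1 chosen after seeing the data (at least 200 UMIs), and the share difference under 7; the Wnt4 split, shares per cell, correlations and S phase shares were not. Of 2058 recomputed ratios of named genes, 1909 stayed within the spread of counting, 135 moved and 14 turned direction from a value past 1.3-fold. Counting smaller ratios too, 178 changed sign. The limit of 20 UMIs could not change a gene's ratio, so it counts as stayed for each named gene. Of 307 list medians 300 stayed, of 56 counts 41, and of 7 differences of shares 6. A list median stayed when it lay between the medians of its genes' lower and upper limits. That span is as wide as for 1 typical gene. Heat shock and mitochondrially encoded medians kept their sign under all 14 alternatives. Those of receptors and of interferon response genes kept it under 7 of 14, and the hypoxia median ran from -0.41 to 0.17. The share difference moved to -0.558 points with cells thinned before the rule. Counts of genes past the size used, where they moved by over 1.5 times, were 194 higher, 224 lower and 40 lower than other cells with cells thinned before the rule (1734 tested), 559, 567 and, for higher than other cells, 148 with 1 CPM added, 551 lower and 305 lower than other cells at 20 UMIs or more (7222 tested), 192 lower without the 5 top cells of each gene, 81 lower than other cells with members thinned (2884 tested) and 108 with at least 4 progenitor genes. At 200 UMIs or more they were 40 higher, 52 lower, 53 higher than other cells and 46 lower than other cells.

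The mitochondrially encoded median was -0.40 with at least 4 progenitor genes, -0.36 without cells over 25% mitochondrial UMIs, -0.49 with no cycle gene, -0.60 with these genes left out of the total and -0.39 without the 5 top cells. Among genes past 1.3-fold, directions turned for Igfbp7 with at least 2 progenitor genes (0.076), for Jag1 with at least 4 (-0.043), and, where Lhx1 was not used, for Cdkn1a (0.037), Mt1 (1.16), Ndrg1 (0.10) and Ttc36 (0.65). With cells thinned before the rule they turned for Ddit3 (0.19), Ier3 (1.40), Jag1 (-1.25), Mt1 (0.57) and Rrm2 (0.56), without the 5 top cells for Ifitm1 (0.16) and Ttc36 (0.013), and with members thinned for Ier3 (0.088). The cause was not tested. No paired analysis was possible because each group had 1 library, so no library could be left out either. Depth limits genes below about 100 UMIs, and no value here has a replicate.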

Other observations

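Some genes with a high ratio of members to other cells are listed for the control library alone, so they entered no comparison between libraries. Meox2, a homeobox factor and paralogue of Meox1, had 59 UMIs in control members (37.9 CPM) against 3.75 CPM in the other control cells. Saa1, an acute phase protein, stood at 27.6 against 2.24 CPM, Pemt, which makes phosphatidylcholine in liver, at 36 against 8.6 CPM, and Ism1, a secreted protein, at 24.4 against 4.72 CPM. They were chosen after their values were seen.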
